A study of Mus musculus with 2 samples.

Results

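The genes described are the insulin-like growth factors (IGFs) Igf1 and Igf2, their receptors Igf1r and Igf2r, and the IGF binding proteins Igfbp2, Igfbp3, Igfbp4, Igfbp5, Igfbp6 and Igfbp7, which are 10 of the 32285 genes in the matrices. They were chosen by name, and each was followed in both libraries over MuSC states, myocytes, fibre droplets and the other cells that the sort let through. The study had profiled plantaris MuSCs in droplets (10x Genomics, 3′ ends) after sham surgery or after 5 days of mechanical overload (MOV), in which part of the synergist muscles is cut away, with 1 library per condition. Both groups were Pax7rtTA; TRE-H2B-GFP mice of 26 weeks that had received doxycycline at 2.0 mg/mL in the drinking water for 2 weeks, so that the Pax7 promoter drove a GFP-tagged histone in MuSCs in controls as well. The labels give VCAM+ cells without CD31, CD45 and SCA1 as the sorted cells, whereas the design text names the GFP signal, and they speak of a single mouse where the methods of the study name several per group.

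IGF1 and IGF2 are secreted peptides that act through the tyrosine kinase receptor encoded by Igf1r, whereas the receptor encoded by Igf2r binds IGF2 and carries it to the lysosome. The binding proteins hold IGFs in the extracellular space and can block or prolong their action, and IGFBP7 is a related matrix protein with weak affinity for IGFs. In skeletal muscle, IGF1 is known for fiber growth and for MuSC proliferation and differentiation, and IGF2 for the differentiation of myoblasts.

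The members lie at separate loci except for Igfbp2 and Igfbp5, which are neighbours on chromosome 1 (chr1:72824503-72852474 on the forward strand and chr1:72857932-72874884 on the reverse strand, GRCm38). On chromosome 7 lie Igf1r (chr7:67952827-68233668, forward) and Igf2 (chr7:142650766-142666816, reverse), the latter overlapped on the opposite strand by exons of Igf2os, which had 4 UMIs in the MuSCs of MOV. On the same strand as Igf2, exons of the protein-coding gene Gm49394 (chr7:142650769-142669942) overlap its exons, and since Gm49394 is not among the genes of the matrices, its reads there cannot be told apart from those of Igf2. Igf1 is at chr10:87858265-87937042 (forward), Igf2r at chr17:12682406-12769664 (reverse), Igfbp3 at chr11:7206086-7213923 (reverse), Igfbp4 at chr11:99041244-99054392 (forward), Igfbp6 at chr15:102144362-102149511 (forward) and Igfbp7 at chr5:77349240-77408041 (reverse). The antisense RNA Airn overlaps one end of Igf2r without sharing exons, whereas an exon of Igfbp7 overlaps one of Polr2b on the other strand. Whether that overlap touches the counts of Igfbp7 was not tested. Promoter windows from RefSeq (GRCm38.p6, 250 bases before to 50 bases after a start site) were found for all 10 members. They are shown for 4 genes that stand for both patterns described below in MOV: Igf2 and Igfbp5, highest in myogenic cells, and Igf1 and Igfbp6, highest in tenocytes and Pdgfra cells. Capitals mark CANNTG, the E-box bound by basic helix-loop-helix factors such as MyoD, which reads the same on both strands.
Igf2 (chr7:142666767-142667066, reverse): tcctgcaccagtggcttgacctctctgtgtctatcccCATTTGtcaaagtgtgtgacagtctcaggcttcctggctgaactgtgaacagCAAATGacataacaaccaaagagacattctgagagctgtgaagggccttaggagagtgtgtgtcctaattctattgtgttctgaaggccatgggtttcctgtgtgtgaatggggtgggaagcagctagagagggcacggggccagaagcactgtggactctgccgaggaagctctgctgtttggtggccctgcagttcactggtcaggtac
Igfbp5 (chr1:72874816-72875115, reverse): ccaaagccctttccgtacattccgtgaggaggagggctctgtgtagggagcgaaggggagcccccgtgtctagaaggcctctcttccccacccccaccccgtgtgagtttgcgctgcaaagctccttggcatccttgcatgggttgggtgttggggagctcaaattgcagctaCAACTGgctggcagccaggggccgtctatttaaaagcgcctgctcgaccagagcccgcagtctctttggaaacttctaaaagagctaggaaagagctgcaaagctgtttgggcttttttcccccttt
Igf1 (chr10:87860861-87861160, forward): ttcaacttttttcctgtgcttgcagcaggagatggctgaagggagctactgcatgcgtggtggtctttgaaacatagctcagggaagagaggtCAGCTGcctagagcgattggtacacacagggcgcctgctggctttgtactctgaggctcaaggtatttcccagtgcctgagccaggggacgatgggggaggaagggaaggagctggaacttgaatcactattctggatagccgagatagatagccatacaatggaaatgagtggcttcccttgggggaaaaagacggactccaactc
Igfbp6 (chr15:102143936-102144235, forward): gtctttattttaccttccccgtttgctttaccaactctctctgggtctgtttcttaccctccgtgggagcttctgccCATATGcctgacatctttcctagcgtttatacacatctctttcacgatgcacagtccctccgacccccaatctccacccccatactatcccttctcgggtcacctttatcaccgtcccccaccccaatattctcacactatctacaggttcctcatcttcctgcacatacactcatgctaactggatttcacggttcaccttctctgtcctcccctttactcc
The Igf2 window held 2 of these motifs and each of the other windows shown held 1, against at least 1 in 72.3% of all 32851 windows of 300 bases. The window of Igf2r held 4, and those of Igf1r and Igfbp7 held 0. The 4 windows listed for Igf2 held between 0 and 2. The assay reads the 3′ end of a transcript and does not show which start site was used, and a match describes letters only.

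The sham library held 1100 barcodes and 7302661 UMIs, and the MOV library 3854 barcodes and 88498487 UMIs. After removal of barcodes at or above 10% mitochondrial UMIs, of likely doublets and of the shallower copies of 44 barcodes found in both libraries, 734 and 2950 remained, with a median of 5346 and 22129.5 UMIs. Cells were grouped by their UMIs of marker genes, none of which is a member. MuSCs, marked by Pax7, Myf5 and Msc, made up 106 of the sham and 1467 of the MOV cells, and fibre droplets, which carried RNA of mature fibers such as Myh4 and Ckm, 439 and 16. The sort should have removed most other cells, yet 35 sham and 649 MOV cells had Pdgfra and other fibroblast-like markers such as Pi16 and Smoc2, 21 and 72 had the tenocyte markers Tnmd, Fmod and Chad, and 3 and 74 had myeloid markers. Levels are given as CPM, the UMIs of a gene scaled to the same total in every group, with exact Poisson intervals at 95%, and ratios with exact conditional intervals, both of which cover counting error only. A difference is called past 2-fold if the log2 ratio of CPM reached 1 or -1 with at least 20 UMIs in the groups together. With 1 library per condition, no test between sham and MOV was possible, and library and condition cannot be told apart.

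Igf1 was highest in cells outside the myogenic line. Its level in MOV was 708 CPM in tenocytes (interval 660.4 to 758), 529 in Pdgfra cells (519 to 538), 212 in myeloid cells (185 to 243) and 24.4 in MuSCs (23.0 to 25.9). In sham it was 464 CPM in tenocytes (380.4 to 561), 374 in Pdgfra cells (317 to 438), 18.0 in MuSCs (11.8 to 26.4) and 8.83 in fibre droplets (5.82 to 12.8). In MOV the intervals of these groups were separate, whereas in sham those of tenocytes and Pdgfra cells overlapped, as did those of MuSCs and fibre droplets. Against MuSCs, the log2 ratio of Pdgfra cells was 4.44 (4.34 to 4.53) in MOV and 4.37 (3.77 to 5.03) in sham. In sham, 1 of the 35 Pdgfra cells held 41.2% of their Igf1 UMIs, whereas in MOV the highest cell held 1.11%. The 3 myeloid cells of sham had 51 UMIs of Igf1.

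Igf2 showed the opposite distribution. In MOV it was at 43.6 CPM in MuSCs (41.7 to 45.6) and 101 in late myocytes (91.8 to 111), but at 2.27 in Pdgfra cells (1.69 to 2.98), 2.92 in myeloid cells (3 UMIs) and 0.865 in tenocytes (1 UMI). In sham, MuSCs were at 38.2 CPM (28.8 to 49.7), with 1 UMI each in the Pdgfra cells and the fibre droplets and 0 in the tenocytes. Pdgfra cells lay below MuSCs in MOV with a log2 ratio of -4.26 (-4.69 to -3.86). Beside the 51 UMIs of Igf2 in the Pdgfra cells of MOV, 6 MuSC markers together stood there at 4.13% of their level in MuSCs, and the part of MuSC RNA in these UMIs was not tested.

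**Figure D1:**
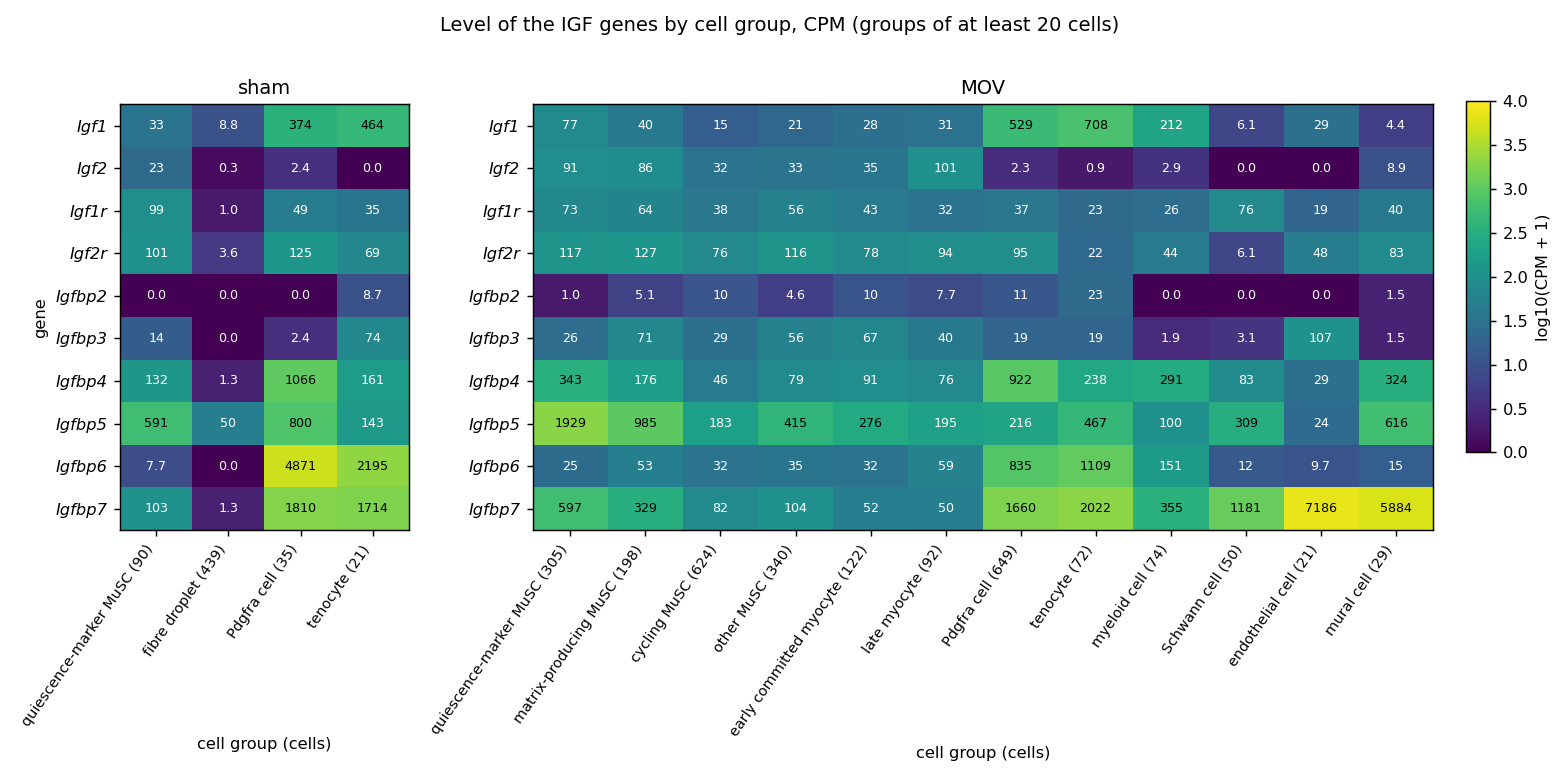
Level of each gene (rows) in each cell group (columns, number of cells in parentheses) in CPM, written in the cells and colored by log10(CPM + 1), for sham (left) and MOV (right). Rows are to be read within a gene: in MOV, Igf1 was highest in tenocytes and Pdgfra cells, Igf2 in late myocytes, quiescence-marker MuSCs and matrix-producing MuSCs, and Igfbp7 in endothelial and mural cells.

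Of the receptors, Igf1r was at 90.2 CPM in the MuSCs of sham (75.4 to 107) and 47.4 in those of MOV (45.4 to 49.5), a log2 ratio of -0.93 (-1.18 to -0.66) that came to -1.05 with TMM and -1.06 with DESeq2 factors, past 2-fold lower. The makeup of these MuSCs differed, with 8 of 106 cycling in sham and 624 of 1467 in MOV. Among quiescence-marker MuSCs alone, Igf1r was at 98.7 CPM in sham and 72.7 in MOV, a log2 ratio of -0.44 (-0.81 to -0.06). That ratio came to -0.59 with TMM and -0.62 with DESeq2 factors, short of 2-fold. In Pdgfra cells it was at 48.9 (29.9 to 75.5) and 37.0 (34.5 to 39.6), and fibre droplets had 3 UMIs in sham and 0 in MOV. Igf2r was at 97.2 CPM in the MuSCs of sham (81.7 to 115) and 92.9 in those of MOV (90.1 to 95.8), with a log2 ratio of -0.06 (-0.31 to 0.19). In MOV, Pdgfra cells were level with MuSCs for Igf2r, at a log2 ratio of 0.04 (-0.04 to 0.11), whereas tenocytes lay lower at -2.05 (-2.66 to -1.49). Schwann cells of MOV had Igf1r at 76.5 CPM (49.5 to 113) but Igf2r at 6.12 (2 UMIs). The order of Igf1r in MOV ran from Schwann cells through quiescence-marker MuSCs at 72.7 CPM and down to endothelial cells at 19.4, with 0 UMIs in fibre droplets, and of the neighbours in that order the other MuSCs (56.1) and early committed myocytes (43.0) alone had separate intervals.

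Of the binding proteins, Igfbp4, Igfbp6 and Igfbp7 were highest outside the myogenic line, as Igf1 was. Igfbp6, which prefers IGF2 over IGF1, was at 835 CPM in the Pdgfra cells of MOV (823 to 847) and 33.9 in the MuSCs (32.2 to 35.7), a log2 ratio of 4.62 (4.55 to 4.70). In sham the same groups stood at 4871 (4659 to 5089.8) and 13.9 (8.48 to 21.4), a log2 ratio of 8.45 (7.82 to 9.17). Igfbp4, which can be cleaved by the protease encoded by Pappa, was at 922 CPM in Pdgfra cells and 93.5 in MuSCs in MOV, and at 1066 and 84.0 in sham. Igfbp7 was at 1660.0 CPM in Pdgfra cells, 2022 in tenocytes and 160.4 in MuSCs in MOV, but it was higher still in endothelial cells (7186, 6825 to 7562) and mural cells (5884, 5702 to 6069), of which there were 21 and 29. The markers of Pdgfra cells together stood in MuSCs at 1.34% of their level in Pdgfra cells in MOV (single markers between 0.206% and 2.81%) and at 0.169% in sham, where 6 of the 10 were at 0. By the same measure the MuSCs of MOV held Igf1 at 4.62%, Igfbp4 at 10.1%, Igfbp6 at 4.06% and Igfbp7 at 9.67%, all above the highest marker, and those of sham at 4.82%, 7.88%, 0.285% and 3.95%, where Igfbp6 lay within the range of the markers (0 to 0.363%).

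Igfbp5, a binding protein of MuSCs and of bone and other connective tissue, was high in MuSCs, but not in them alone. It was at 358 CPM in the MuSCs of sham (328 to 390.4) and 475 in those of MOV (468 to 481). In MOV, mural cells were higher at 616 CPM, and tenocytes at 467 were level with MuSCs (-0.02, -0.15 to 0.10). The MuSC states of MOV ran from 183 CPM in cycling to 1929 in quiescence-marker MuSCs. Pdgfra cells stood at 799.6 (715 to 891) in sham and 216 (210.0 to 222) in MOV, so that their log2 ratio to MuSCs was 1.16 (0.95 to 1.36) in sham and -1.14 (-1.18 to -1.09) in MOV. The value in sham was -0.04 with a mitochondrial limit of 5%, and 4 of the 35 cells held 60.9% of the UMIs. In MOV, 306 of the 649 Pdgfra cells had a UMI of Igfbp5, and 65 held 78.5% of its UMIs. Igfbp3, which carries most IGF in blood, was at 27.1 CPM in the MuSCs of sham (19.2 to 37.0) and 37.9 in those of MOV (36.1 to 39.8), and in MOV at 107 (66.9 to 162) in endothelial cells and 18.9 (17.1 to 20.8) in Pdgfra cells. Igfbp2 was scarce, with 4 UMIs in sham and 750 in MOV. In MOV it was at 7.77 CPM in MuSCs, 11.1 in Pdgfra cells and 23.3 in tenocytes, with all of its UMIs in 105, 43 and 6 cells of these groups.

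Of the 10 members, 4 lay past 2-fold higher and 3 lower in Pdgfra cells than in MuSCs of MOV, beside 20.1% and 15.9% of all genes with at least 20 UMIs. Those higher were Igf1, Igfbp4, Igfbp6 and Igfbp7, and those lower Igf2, Igfbp3 and Igfbp5, of which Igfbp3 (-1.01) lay at the threshold and came to -0.92 with DESeq2 factors. In tenocytes, 5 were higher and 3 lower (16.6% and 21% of all genes), with Igfbp2 joining the higher genes at 1.59 (0.97 to 2.15) from 27 UMIs and 0.76 in groups from clusters. Igf2 was among the lower ones and met the minimum only through the MuSCs, with 1 UMI in tenocytes. Igf1r, lower at -1.02 there, came to -0.90 with TMM factors, -0.88 with DESeq2 factors and -0.96 in groups from clusters, and Igfbp4, higher at 1.35, to 0.83 when each cell weighed the same. In myeloid cells, 4 were higher and 5 lower (20.5% and 22.8%), with Igf1 at 3.12 (2.90 to 3.33) and Igfbp5 at -2.24 (-2.54 to -1.96). Of those lower, Igf2 (3 UMIs), Igfbp3 (2 UMIs) and Igfbp2 met the minimum only through the MuSCs, so the count depends on the filter. Igfbp7 was at 1.14 (0.99 to 1.30) in myeloid cells, but at -0.49 when each cell weighed the same and at 0.85 with a mitochondrial limit of 5%. With each cell weighted the same, Igfbp4 also went from 1.64 to 0.62. Igfbp2 had 0 UMIs in the myeloid cells, and its ratio of -1.41 against a floor of 3 UMIs came to -0.35 with the same weighting. Igf2r (-1.08) came to -0.95 with DESeq2 factors and -0.73 in groups from clusters. In sham, 5 of 9 members were higher and 2 lower in Pdgfra cells than in MuSCs (20% and 18.1% of all genes), and 4 and 3 in tenocytes (16.4% and 23.8%). The 2 lower in Pdgfra cells, Igf2 and Igfbp3, had 1 UMI each there and met the minimum only through the MuSCs. Of the 3 lower in tenocytes, this was so for Igf2 (0 UMIs) and Igf1r (8 UMIs), so the lower counts depend on the filter. With a mitochondrial limit of 5% the counts in Pdgfra cells and in tenocytes of sham, both directions together, each went from 7 to 4. That limit left fewer ratios of members over all comparisons (157 against 164 with a limit of 20%), so a lower count can include ratios no longer given. With TMM or DESeq2 factors the tenocyte split was 5 and 3, since Igfbp4 (0.93) came to 1.08 and 1.10. The myeloid values rest on few cells, since for each gene 8 of the 74 held 89.0% of the Igfbp6, 88.2% of the Igfbp7, 72.2% of the Igfbp4 and 62.4% of the Igf1 UMIs. A single cell held 38.8% of the Igfbp4 UMIs. The markers of Pdgfra cells together stood in these myeloid cells at 14.3% of their level in Pdgfra cells (single markers between 0.910% and 39.7%). Igfbp6 at 18.1%, Igfbp7 at 21.4% and Igfbp4 at 31.6% lay within that range, and Igf1 at 40.2% just above it. The part of Pdgfra cell RNA in the myeloid cells was not tested.

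At whole-library level, MuSCs held 72.9% of the Igf2, 67.3% of the Igfbp5, 60.2% of the Igfbp3 and 58.5% of the Igf1r UMIs in MOV, compared with 52.7% of all UMIs. Pdgfra cells held 27.0% of all UMIs but 75.6% of Igf1, 75.6% of Igfbp6, 74.3% of Igfbp4 and 63.8% of Igfbp7. In sham, fibre droplets made up 53.0% of all UMIs and 7.09% of those of Igf1, 1.61% of Igf2 and 13.1% of Igfbp5, and they had 0 UMIs of Igfbp2, Igfbp3 and Igfbp6. Over all cells kept, 6 members were past 2-fold higher in MOV than in sham and 0 lower, beside 23.8% and 13.1% of all genes, and the median of the members was 1.29 beside 0.40 for all genes. Among the 6, Igfbp2 met the minimum only through MOV, with 4 UMIs in sham. Igf1 went from 66.1 CPM in sham to 188 in MOV and Igf2 from 10.8 to 31.5, with log2 ratios of 1.51 (1.37 to 1.66) and 1.55 (1.19 to 1.94). Igfbp6 was the member lower in MOV, at 547 CPM in sham and 298 in MOV (-0.88, -0.93 to -0.82). With TMM factors the median of all genes came to 0.04, and Igfbp3 (1.33) and Igfbp7 (1.25) came to 0.97 and 0.90, whereas Igfbp6 came to -1.24, so that 4 members were higher and 1 was lower. Fewer cells of a type and less RNA per cell cannot be told apart in these sums, and the makeup of the libraries differed.

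**Figure D2:**
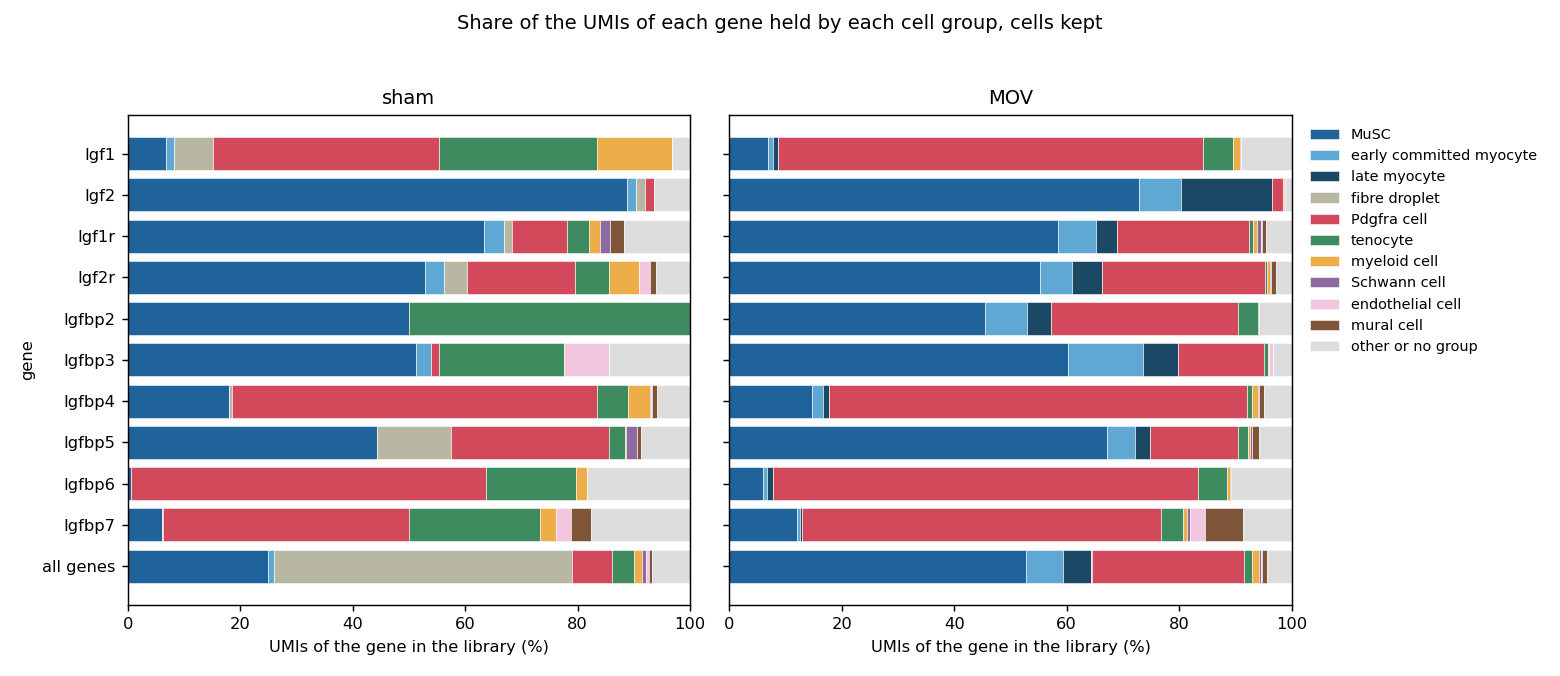
Share of the UMIs of each gene held by each cell group among the cells kept, in percent of the library, for sham (left) and MOV (right), with all genes in the lowest bar. Pdgfra cells held 75.6% of Igf1 and MuSCs 72.9% of Igf2 in MOV, and the Igfbp2 bar of sham rests on 4 UMIs.

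Within the MuSCs of MOV, most members differed between the states. The states were cut from the UMIs of marker lists along a continuous range, and 144 and 311 of the 1681 myogenic cells of MOV lay within 20% of the cut for quiescence markers and for matrix genes. There were 305 cells high in quiescence markers such as Chrdl2, Calcr and Spry1, 198 high in matrix genes such as Spp1 and Sparc, 624 cycling cells and 340 others. Of the 10 leading genes of the matrix group, Spp1 was from its own list, Myf5 and Vcam1 were from the MuSC list, and Igf2 and Igfbp5 were among them, so that its name is weakly supported. Igfbp5 stood at 1929 CPM in quiescence-marker MuSCs (1887 to 1972), 985 in the matrix group (957 to 1014), 415 in other MuSCs (401 to 429) and 183 in cycling MuSCs (178 to 188). Igfbp7 followed the same order with 597, 329, 104 and 82.1 CPM, and so did Igfbp4 with 343, 176, 78.7 and 45.8 CPM and Igf1 with 76.8, 40.3, 20.9 and 14.8 CPM. In none of these 4 genes did the intervals of neighbouring states overlap.

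Igf2 was at 91.0 CPM in quiescence-marker MuSCs (82.0 to 100.7) and 86.3 in the matrix group (78.1 to 95.2), which did not differ beyond counting error, and at 33.4 and 32.1 in other and cycling MuSCs. Igfbp3 had another order, with 70.8 CPM in the matrix group (63.4 to 78.8), 56.2 in other (51.2 to 61.6), 28.5 in cycling (26.5 to 30.6) and 26.1 in quiescence-marker MuSCs (21.4 to 31.5). Igfbp2 was at 10.2 CPM in cycling (9.05 to 11.5) and 0.976 in quiescence-marker MuSCs (4 UMIs, 0.266 to 2.50). In cycling against quiescence-marker MuSCs, 1 member was past 2-fold higher and 5 were lower, beside 16.9% and 11.7% of all genes. The lower ones were Igfbp5 (-3.40, -3.45 to -3.34), Igfbp4 (-2.91), Igfbp7 (-2.86), Igf1 (-2.38) and Igf2 (-1.50, or -0.60 in groups from clusters), and the higher one was Igfbp2 (3.39, 2.02 to 5.27). In the matrix group against quiescence-marker MuSCs, 3 members were past 2-fold higher and 0 lower (5.88% and 3.5% of all genes): Igfbp2 (2.39, 0.85 to 4.38), Igfbp3 (1.44, 1.12 to 1.77) and Igfbp6 (1.05, or 0.44 in groups from clusters). With TMM or DESeq2 factors, which took the median of all genes here from 0.11 to about 0, the split was 2 higher and 3 lower, since Igfbp6 came to 0.95 and Igf1 (-0.93), Igfbp4 (-0.97) and Igfbp5 (-0.97) came to -1.04, -1.07 and -1.07 with TMM factors. In other MuSCs against the same cells, 2 were higher and 5 lower (7.56% and 4.16%), with Igfbp2 and Igfbp3 (1.11) higher and Igf1, Igf2, Igfbp4, Igfbp5 and Igfbp7 lower. Igf1r (-0.93) and Igf2r (-0.62) were lower in cycling MuSCs without reaching 2-fold. The cycling cells were deeper, with a median of 35420.0 UMIs against 12687. In sham, Igf2 was instead higher in the 8 cycling cells, at 59.2 CPM from 24 UMIs (37.9 to 88.1). Quiescence-marker MuSCs of sham were at 23.1 CPM (13.7 to 36.5). Igf1, Igfbp4, Igfbp5 and Igfbp7 were lower in the cycling cells of sham too.

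In late myocytes of MOV, which express the developmental myosin Myh3 and the embryonic actin gene Actc1, Igf2 stood at a log2 ratio of 1.22 (1.06 to 1.37) to MuSCs, but at 0.73 in groups from clusters. Igfbp5 was at 195 CPM in late myocytes (-1.28, -1.38 to -1.18) and Igfbp7 at 49.5 CPM (-1.70, -1.90 to -1.50). A single cell held 21.2% of the Igfbp5 UMIs of late myocytes. These were 1 member higher and 2 lower, beside 9.73% and 18% of all genes. In early committed myocytes, with Myog and Cdkn1c among their leading genes, Igfbp7 alone passed 2-fold, at 51.8 CPM and -1.63 (-1.81 to -1.46), beside 3.98% of all genes that were higher and 6.77% that were lower. In both myocyte groups more members passed 2-fold with each cell weighted the same. In early committed myocytes this was so with no mitochondrial limit too, and the counts are given in the last section. Igfbp3 was at 66.8 CPM in early and 40.2 in late myocytes. Sham held 1 early and 1 late myocyte, and no comparison of myocytes between the libraries was made.

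**Figure D3:**
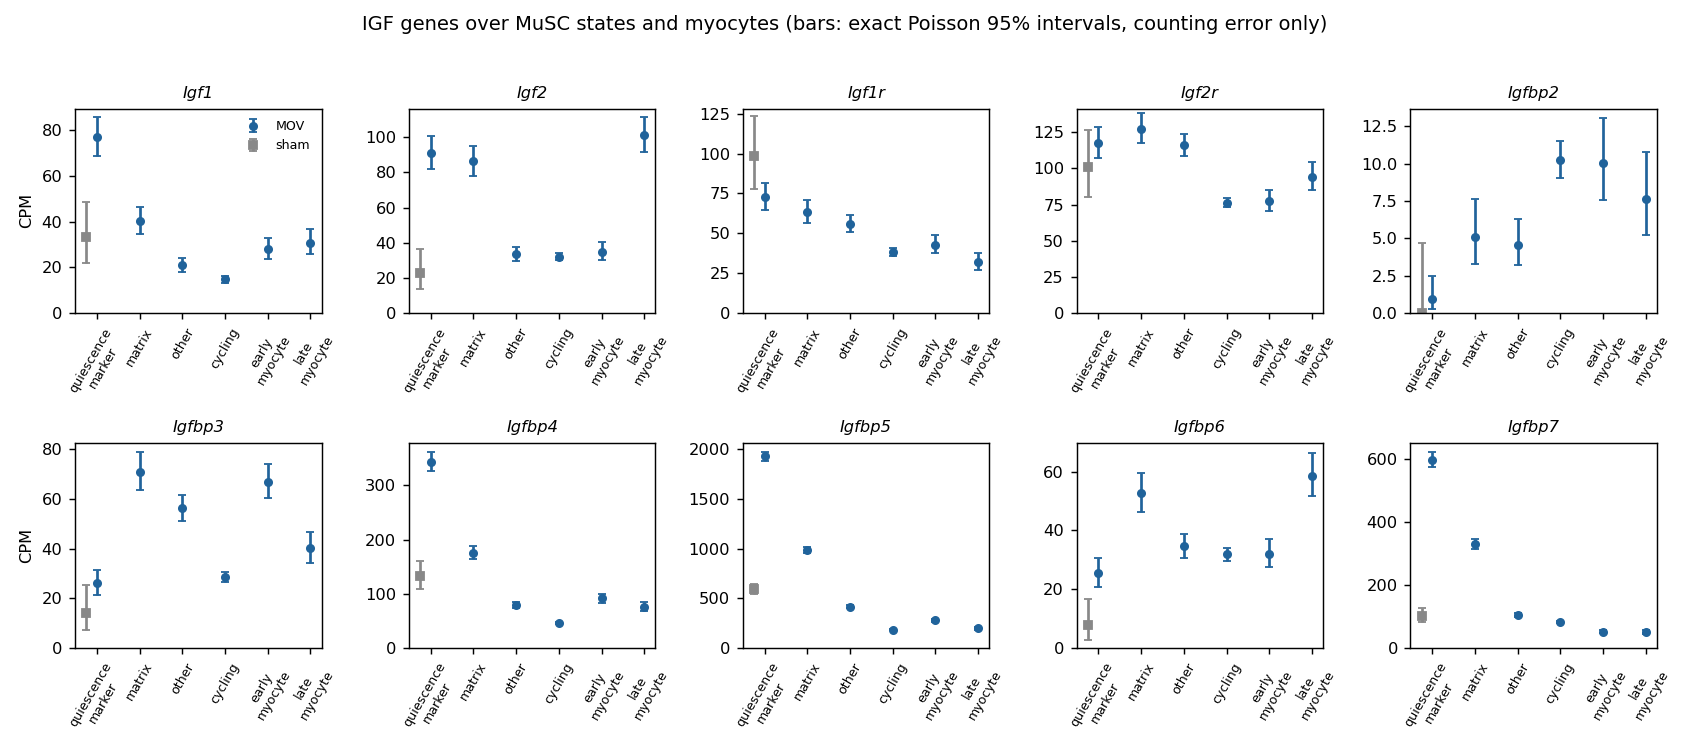
CPM of each gene in the MuSC states and myocytes of MOV (blue circles) and in the quiescence-marker MuSCs of sham (gray squares), with exact Poisson 95% intervals that cover counting error only, on a linear axis from 0. Igfbp4, Igfbp5, Igfbp7 and Igf1 were highest in quiescence-marker MuSCs and lowest in cycling MuSCs among the MuSC states, and Igfbp5 went from 1929 to 183 CPM.

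Fibre droplets had little RNA of these genes. In sham, all 9 members with at least 20 UMIs were past 2-fold lower than in MuSCs, beside 51.2% of all genes lower and 21.4% higher. The count was 5 with a mitochondrial limit of 5% and 8 with TMM or DESeq2 factors. Igf1 and Igfbp5 alone had at least 20 UMIs in the droplets. The other members met that minimum only through the MuSCs, where they were high, so the count depends on the filter. The median log2 ratio of the 9 members was -4.79 beside -1.09 for all genes. With TMM factors the median of all genes came to -0.15. Igfbp5 kept 49.7 CPM there (42.1 to 58.2) from 152 UMIs, a log2 ratio of -2.85 (-3.12 to -2.59), and was seen in 7.0% of the droplets thinned to 2000 UMIs (4.58% to 10.2%) and in 18.5% without thinning. Igf1 was at 8.83 CPM from 27 UMIs, and its ratio of -1.03 (-1.86 to -0.20) came to -0.03 with DESeq2 factors. MuSC markers stood in these droplets at 2.66% of their level in MuSCs and Pdgfra cell markers at 0.0347% of theirs. Igf1r had 3 UMIs and Igf2r 11 in 439 droplets. The 16 fibre droplets of MOV had between 0 and 5 UMIs of any member, so that each member met the minimum of 20 UMIs only through the MuSCs. Of the 10, 0 passed 2-fold higher and 7 lower (12% and 21.1% of all genes) on at most 5 UMIs each. This split depends on that filter and on the few UMIs of the droplets. With TMM factors 6 and with DESeq2 factors 5 were lower, since Igf1r (-1.13) came to -0.91 and -0.79 and Igfbp6 to -0.90 with DESeq2 factors, and Igfbp6 went from -1.23 to 0.88 when each droplet weighed the same.

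Between the libraries, quiescence-marker MuSCs were compared by the same gate, with 90 cells in sham and 305 in MOV. The cells within the gate were not alike, with a median of 69.0 UMIs of quiescence markers per 10000 in sham and 49.5 in MOV, and of 6.07 and 54.99 UMIs of the matrix list, and the part of this in the ratios was not tested. Of 9 members with at least 20 UMIs, 6 were past 2-fold higher in MOV and 0 lower, beside 16.9% and 6.92% of all genes, and the median of the members was 1.38 beside 0.19. Among the 6, Igf2 (18 UMIs in sham) and Igfbp6 (6 UMIs in sham) met the minimum only through the MOV cells, where they were higher. The count thus depends in part on the filter. Igfbp7 was at 103 CPM in sham (81.3 to 128) and 597 in MOV (574 to 621), a log2 ratio of 2.54 (2.22 to 2.88). Igfbp5 was at 591 (538 to 647) and 1929 (1887 to 1972), a log2 ratio of 1.71 (1.57 to 1.85). Igfbp4 was at 132 (108 to 160.1) and 343 (326 to 362), a log2 ratio of 1.38 (1.09 to 1.68). For these 3 binding proteins the ratio stayed past 2-fold in every alternative run, between 1.19 for Igfbp4 with a mitochondrial limit of 5% and 2.62 for Igfbp7 with a limit of 20%. Igf2 was at 23.1 (13.7 to 36.5) and 91.0 (82.0 to 100.7), and Igf1 at 33.3 (21.8 to 48.8) and 76.8 (68.6 to 85.8), log2 ratios of 1.98 and 1.21 that came to 0.79 and 0.60 in groups from clusters. Igfbp6 was at 7.69 CPM in sham from 6 UMIs and 25.4 in MOV (1.72, 0.55 to 3.20).

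The markers of Pdgfra cells were also higher in the quiescence-marker MuSCs of MOV, at 1.69% of their level in Pdgfra cells against 0.204% in sham, with 2 and 6 of the 10 at 0. Igfbp4 and Igfbp7 stood there at 37.2% and 36.0% of the Pdgfra cell level in MOV and at 12.4% and 5.66% in sham, above every single marker (at most 2.84% and 0.586%). Igfbp6 stood there at 3.04% in MOV, just above the highest marker, and at 0.158% in sham, within their range. The markers of fibers summed to 1741 CPM in the sham cells and 695 in the MOV cells, and with fiber and mitochondrial genes left out of the totals the ratio of Igfbp4 was 1.34, that of Igfbp7 2.51. In cells thinned to 2000 UMIs, Igfbp5 was seen in 45.6% of the sham (35.0% to 56.4%) and 73.3% of the MOV cells (67.9% to 78.2%), and Igfbp7 in 15.6% (8.77% to 24.7%) and 53.1% (47.3% to 58.9%). In fibre droplets of sham, which should lack most of these RNAs, Igfbp5 was seen in 7.0% (4.58% to 10.2%) and Igfbp7 in 0.280% (0.00709% to 1.55%), at a median of 4564 UMIs before thinning against 7890.5 in the sham cells and 12687 in the MOV cells. In the 12 fibre droplets of MOV deep enough for thinning, Igfbp5 and Igfbp7 were each seen in 1 (8.33%, 0.211% to 38.5%). Thinning left out 2 MOV cells and 82 fibre droplets of sham that were shallower. Without thinning, Igfbp5 was seen in 66.7% of the sham and 89.8% of the MOV cells, and Igfbp7 in 41.1% and 87.2%.

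Over all MuSCs, 3 of 10 members were past 2-fold higher in MOV and 0 lower (11.6% and 9.17% of all genes), or 3 and 1 with TMM or DESeq2 factors, the one lower being Igf1r. Igfbp7 was at 71.5 CPM in sham and 160.4 in MOV (1.17, 0.89 to 1.46), Igfbp6 at 13.9 and 33.9 (1.29, or 0.91 with a mitochondrial limit of 5%), and Igfbp2 had 2 UMIs in sham (2.48, 0.62 to 5.54). Igfbp5 was at a log2 ratio of 0.41 (0.28 to 0.54) and Igfbp4 at 0.16 (-0.11 to 0.43). The makeup of the MuSCs differed, since 90 of the 106 sham MuSCs but 305 of the 1467 MOV MuSCs were in the quiescence-marker state, and 8 and 624 were cycling.

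In Pdgfra cells, Igfbp6 and Igfbp5 were past 2-fold lower in MOV than in sham and Igfbp3 was higher, beside 19% and 10.5% of all genes. Other markers differed in these cells too, with a median of 0 UMIs of tenocyte markers per 10000 in sham and 18.0 in MOV, of 66.5 and 394 of the matrix list and of 75.5 and 59.9 of Pdgfra cell markers, and their part in the ratios was not tested. Igfbp6 was at 4871 CPM in sham (4659 to 5089.8) and 835 in MOV (823 to 847), a log2 ratio of -2.54 (-2.61 to -2.48). Igfbp5 was at 799.6 and 216 CPM, a log2 ratio of -1.89 (-2.05 to -1.72) that came to -0.57 with a mitochondrial limit of 5%. The higher Igfbp3 rests on 1 UMI in sham (2.95, 0.46 to 8.26). Igf1 was at 374 and 529 CPM (0.50, 0.27 to 0.74), or at a log2 ratio of 1.006 when each cell weighed the same, beside the single sham cell with 41.2% of the UMIs. Igfbp4 (-0.21, -0.35 to -0.07) and Igfbp7 (-0.12, -0.23 to -0.02) lay close to 0, with Igfbp7 at 0.05 under DESeq2 factors and 0.16 with a mitochondrial limit of 5%. The sham group had 35 cells, of which 4 held 55.6% of the Igfbp6 UMIs. After thinning to 2000 UMIs, Igfbp6 was seen in 91.2% of the sham (76.3% to 98.1%) and 62.2% of the MOV Pdgfra cells (58.3% to 66.0%), and Igf1 in 32.4% (17.4% to 50.5%) and 54.7% (50.8% to 58.7%). In fibre droplets of sham thinned alike, Igf1 was seen in 1.68% (0.619% to 3.62%) and Igfbp6 in 0 of 357. Without thinning the shares in Pdgfra cells were 100% and 94.9% for Igfbp6 and 62.9% and 91.5% for Igf1.

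In tenocytes, of which there were 21 and 72, 2 members were past 2-fold higher in MOV and 2 lower, beside 11.9% and 8.98% of all genes. The cells were not alike, with a median of 289 UMIs of tenocyte markers per 10000 in sham and 221 in MOV, and of 117 and 459.8 of the matrix list. In MOV 72 cells lay within 20% of the tenocyte cut and in sham 0, and 51 MOV cells and 1 sham cell high in tenocyte markers were left out as mixed. The part of this in the ratios was not tested. Igfbp5 was at 143 CPM in sham (98.5 to 201) and 467 in MOV (428 to 508), a log2 ratio of 1.71 (1.20 to 2.26). In MOV, 28 of the 72 tenocytes had a UMI of Igfbp5, and 8 held 76.3% of its UMIs. The other gene past 2-fold higher, Igfbp2, had 2 UMIs in sham (1.43, -0.57 to 4.55) and came to 0.32 with a mitochondrial limit of 5%. Igfbp6 was at 2195 (2008 to 2395) and 1109 (1049 to 1172), a log2 ratio of -0.98 (-1.13 to -0.83) that came to -1.03 with TMM or DESeq2 factors, so that 3 were lower. Igf2r (-1.63, -2.58 to -0.63) and Igfbp3 (-1.96, -2.93 to -0.95) were lower on 16 and 17 UMIs in sham, and Igfbp3 came to 0.47 with a mitochondrial limit of 5%. Igf1 was at 464 and 708 CPM (0.61, 0.32 to 0.91).

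**Figure D4:**
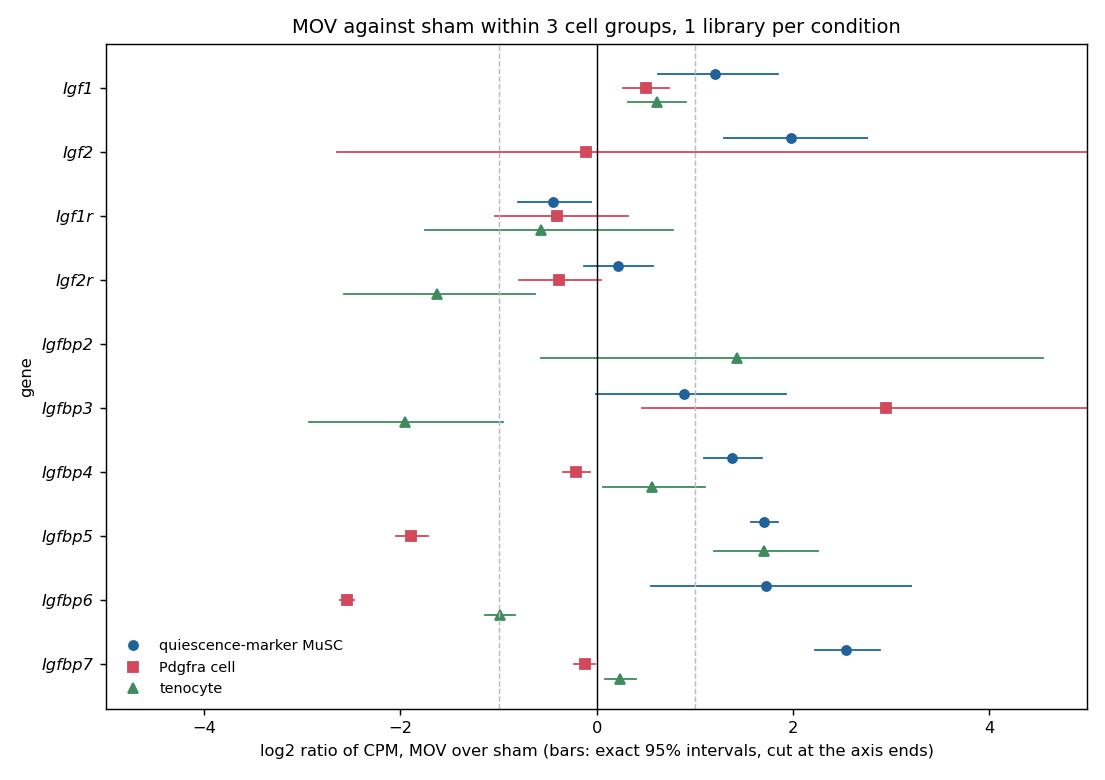
Log2 ratio of CPM of MOV over sham for each gene in quiescence-marker MuSCs (circles), Pdgfra cells (squares) and tenocytes (triangles), for genes with at least 20 UMIs and a UMI in each library, with exact 95% intervals cut at the axis ends and dashed lines at 2-fold. Igfbp5 lay at 1.71 in quiescence-marker MuSCs and in tenocytes and at -1.89 in Pdgfra cells, and the difference between groups was not tested.

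The other genes of the pathway were followed in 6 lists with 58 genes. Of 8 proteases and inhibitors that act on binding proteins, 7 had at least 20 UMIs in the comparison of Pdgfra cells with MuSCs of MOV, and 6 of these were past 2-fold higher and 1 lower, beside 20.1% and 15.9% of all genes. Pappa and Pappa2, which encode proteases of IGF binding proteins, had the largest ratios, at 7.37 (6.52 to 8.38) from 931 against 11 UMIs and at 5.92 from 31 against 1 UMI. The one lower was Stc2, whose product inhibits the protease encoded by Pappa, at -1.76 from 16 against 106 UMIs. Of the receptor substrates and adaptors, 2 of 10 were higher, and of 18 genes of the PI3K, AKT and mTOR list 0 passed 2-fold in this comparison. In quiescence-marker MuSCs, 11 of 39 pathway genes with at least 20 UMIs were past 2-fold higher in MOV and 0 lower (16.9% and 6.92% of all genes). The largest were H19, the noncoding RNA next to Igf2, with 2 UMIs in sham and 233 in MOV (4.47, 2.60 to 7.52), and Irs1, which encodes a substrate of the IGF1 receptor, with 1 and 53 UMIs (3.33, 0.79 to 8.66).

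In Pdgfra cells 3 of 46 pathway genes were past 2-fold higher and 11 lower in MOV than in sham (10.5% and 19% of all genes). Pcsk6, a proprotein convertase, was at 315 CPM in sham and 32.4 in MOV (-3.28), and Irs2 at 286 and 53.3 (-2.42). In tenocytes 0 of 30 were higher and 8 lower (11.9% and 8.98%), led by Pik3r1 (-2.27) and Cdkn1b (-2.11). In late myocytes, Trim63, a ubiquitin ligase of muscle and target of FOXO factors, was higher than in MuSCs (6.18, 5.65 to 6.76), and Igf2bp2, which encodes a protein that binds Igf2 mRNA, was lower (-2.55, -3.26 to -1.91). In cycling against quiescence-marker MuSCs, 2 of 45 were higher and 7 lower (16.9% and 11.7%), led by Fbxo32 (-1.79) and Htra1, a secreted protease (-1.67). In fibre droplets of sham, 6 of 39 were higher and 20 lower than in MuSCs (21.4% and 51.2%), with Adam12 at -6.41 from 1 against 40 UMIs and Trim63 at 383 against 0 UMIs, at least 5.91 on the log2 scale.

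Over the 13 profiles of a cell group and library with at least 30 cells, the genes most like a member were ranked among 11275 others by Pearson r of log2(CPM + 1). The profiles share library, depth and the low values of fibre droplets, and r is a description. Closest to Igf1 was Rassf5 (0.97), to Igf1r Setd5 (0.99), to Igf2r Rdh10 (0.97), to Igfbp4 Mia3 (0.97), to Igfbp5 Npas3 (0.95), to Igfbp6 Cygb (0.96) and to Igfbp7 Dsel (0.98). Igfbp3 was closest to Socs2 (0.96), the feedback inhibitor of growth hormone signalling. For Igfbp2 the closest gene was Gins3 (0.91), the lowest of these values. The closest gene depends on the measure. By Spearman rho it was another gene for Igf1r, Igf2r, Igfbp2, Igfbp3, Igfbp4 and Igfbp6, and Socs2 was not among the first 3 for Igfbp3. Among the members themselves, r was highest for Igfbp4 with Igfbp7 (0.88) and Igf1 with Igfbp6 (0.87), and lowest for Igf1 with Igf2 (-0.22).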

How the data were processed

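MuSCs sorted from plantaris muscle had been profiled in 1 library per condition (sham, MOV). The deposited matrices hold counts of UMIs per gene and barcode that the authors made with Cell Ranger 6.0.0 against mm10, per the submitters' processing notes, and both were used as deposited. Whether mice were pooled in a library is not given in the sources used here.

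Barcodes at or above 10% mitochondrial UMIs were removed, as were doublets scored at 0.8% per 1000 cells and the shallower copy of barcodes found in both libraries. Cells of at least 1000 UMIs with at least 3 markers of a list were grouped by marker UMIs per 10000 UMIs (MuSC 2, fibre droplet 500, Pdgfra cell 10, tenocyte 75, myeloid cell 10), and cells with a competing list at 0.5 of the leading one or more were set aside as mixed. The members and all lists were chosen with earlier results of these data known. UMIs were summed per group and library, and a gene at 0 was set to a floor of 3 counts for a bound. All 10 members were named, with the 2 pathway genes of the largest ratio among those with at least 20 UMIs in each comparison, and the gene closest by Pearson r, which for Igf2 is not reported here. No test was run.

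Alternatives were other mitochondrial limits (5%, 20%, none), doublets kept, TMM (edgeR 4.0.16) or DESeq2 1.42.0 factors, totals without fiber and mitochondrial genes, no UMI minimum, groups from Leiden clusters (scanpy 1.11.5), each cell weighted the same, other thinning, and, chosen after seeing the data, shallower copies of shared barcodes kept. The scripts were run in Python 3.11.15 and R 4.3.3. The ratios were tested on Poisson counts simulated for quiescence-marker MuSCs, MOV against sham, without the spread between cells of real data. Of the genes simulated without a change, 5.64% came out past 2-fold.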

Additional observations from a re-analysis of the deposited data

Results flagged for a closer look

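As reported, each of these genes had a higher level in MOV than in sham in one cell group and a lower level in another, with 1 library per condition, and the difference between groups was not tested. Igfbp5 had a log2 ratio of MOV over sham of 1.71 in quiescence-marker MuSCs and 1.71 in tenocytes, against -1.89 in Pdgfra cells, which came to -0.57 with a mitochondrial limit of 5%, and 8 of the 72 MOV tenocytes held 76.3% of their Igfbp5 UMIs. Igfbp6 stood at 1.72 in quiescence-marker MuSCs, from 6 sham UMIs, against -2.54 in Pdgfra cells and -0.98 in tenocytes. Igfbp7 stood at 2.54 in quiescence-marker MuSCs and 0.24 in tenocytes, against -0.12 in Pdgfra cells, which came to 0.06 with TMM factors, 0.05 with DESeq2 factors and 0.16 with a mitochondrial limit of 5%, so that the opposite direction was lost. Igfbp4 stood at 1.38 in quiescence-marker MuSCs and 0.57 in tenocytes, against -0.21 in Pdgfra cells, or -0.02 with TMM factors. Igfbp3 stood at 2.95 in Pdgfra cells, from 1 sham UMI, against -1.96 in tenocytes, which came to 0.47 with a mitochondrial limit of 5%.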

How the results depend on the processing

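With 1 library per condition, no paired analysis was possible, and both labels give replicate 1 and no other number. Of 1786 ratios of the members recomputed, 1529 moved by less than their counting interval, and 4 of those past 2-fold as reported changed sign. With a mitochondrial limit of 5%, Igfbp3 in tenocytes came to 0.47 for MOV over sham (-1.96 as reported) and Igfbp5 in sham Pdgfra cells over MuSCs to -0.040 (1.16). With each cell weighted the same, Igfbp7 in myeloid cells over MuSCs came to -0.49 (1.14) and Igfbp6 in MOV fibre droplets over MuSCs to 0.88 (-1.23). The cause was not tested. Of 739 alternatives of ratios under 2-fold, 55 were past it and 45 changed sign, such as Igfbp3 in quiescence-marker MuSCs for MOV over sham (0.89), at -0.65 with the limit of 5% and -0.17 in groups from clusters, and Igf2 in Pdgfra cells (-0.11), from -2.04 with no mitochondrial limit to 0.96 with cells weighted the same. Of 1047 alternatives of ratios past 2-fold, 989 stayed past it. The count of members past 2-fold, both directions together, in early committed myocytes, 1 as reported, was 2 with no mitochondrial limit and 3 with cells weighted the same, and that in late myocytes went from 3 to 5 with cells weighted the same. In the matrix group over quiescence-marker MuSCs it went from 3 to 5 with TMM or DESeq2 factors (3 higher and 0 lower, then 2 and 3). With a mitochondrial limit of 5%, the counts in sham against MuSCs went from 7 to 4 in Pdgfra cells, from 7 to 4 in tenocytes and from 9 to 5 in fibre droplets. Over all comparisons 157 ratios of members were available with that limit, against 164 with a limit of 20%, so a lower count can include ratios no longer given. Groups from clusters held no early committed myocytes and gave no value there. The 35 Pdgfra cells and 21 tenocytes of sham held between 0 and 17 UMIs each of Igf2, Igfbp2 and Igfbp3, which limits their ratios.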
